A study of Mus musculus with 12 samples.

Results

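The serum amyloid A genes Saa1, Saa2, Saa3 and Saa4, the orosomucoid genes Orm1, Orm2 and Orm3, the lipocalin gene Lcn2 and the pentraxin genes Crp and Apcs encode plasma proteins of the acute-phase response. They were chosen by gene symbol as a family list, 10 of the 53796 rows of the expression table, and each symbol matched exactly 1 row. All 10 had at least 1 FPKM (sequenced fragments relative to transcript length and library size) in at least 3 libraries, the filter that left 11728 genes for testing, and none was listed at 0 in any library.

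Total RNA of mouse livers was sequenced, with 4 groups of 3 libraries (12 in all). The RIPK1 D138N libraries came from mice with a point mutation in the kinase RIPK1, the TNFR1/2 KO libraries from mice labelled as lacking both TNF receptors, and the WT and Sham libraries from mice of wild-type genotype. Sham is the one group labelled as sham, and the remaining 3 are read here as livers after ischemia, going by the title and design text of the series. Strain, age, sex, the length of ischemia and the time since the operation are not given in the sources used here. Sham libraries of the mutant genotypes were not analysed here, so for either mutant a baseline difference cannot be told apart from a difference in the response. Whether repeats are separate animals is not labelled, so the p-values reflect the spread among these libraries alone, which may be technical.

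The acute-phase response is a change in the plasma proteins that hepatocytes secrete after injury or infection. Interleukin-6 and related cytokines act on the liver through the receptor subunit gp130 and the transcription factor STAT3, while interleukin-1 and TNF act through NF-kB, and C/EBP factors bind many of the promoters. SAA1 and SAA2 are carried on high-density lipoprotein, orosomucoids bind drugs and small lipophilic molecules, lipocalin 2 binds bacterial siderophores, and serum amyloid P, encoded by Apcs, is a major acute-phase pentraxin of the mouse.

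The promoters of the 6 genes on which the results turn most are shown because near-identical copies and unlike relatives stand side by side among them. Each sequence is the 250 bases before the RefSeq transcript start, from RefSeq's GRCm38.p6 assembly. The coordinates are 1-based. Capitals mark matches to the C/EBP motif TTGCNNAA or the NF-kB pattern GGRRNNYYCC, searched on both strands. In these letters R is A or G, Y is C or T and N is any base. The Saa1 promoter lies at chr7:46742981-46743230 on the minus strand, Saa2 at chr7:46751583-46751832 on the plus strand, Saa4 at chr7:46732604-46732853 on the minus strand, Orm2 at chr4:63362199-63362448 on the plus strand, Orm3 at chr4:63355908-63356157 on the plus strand and Lcn2 at chr2:32387740-32387989 on the minus strand.
Saa1: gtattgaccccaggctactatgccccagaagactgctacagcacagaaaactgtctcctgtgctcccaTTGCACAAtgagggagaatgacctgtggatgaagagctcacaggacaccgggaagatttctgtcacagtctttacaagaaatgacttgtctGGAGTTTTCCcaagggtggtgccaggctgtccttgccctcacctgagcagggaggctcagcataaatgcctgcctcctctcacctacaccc
Saa2: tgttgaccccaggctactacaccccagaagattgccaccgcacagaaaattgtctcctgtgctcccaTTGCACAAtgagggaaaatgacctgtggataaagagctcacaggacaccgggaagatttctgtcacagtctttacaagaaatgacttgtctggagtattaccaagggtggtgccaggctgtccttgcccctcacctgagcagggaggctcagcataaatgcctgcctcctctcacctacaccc
Saa4: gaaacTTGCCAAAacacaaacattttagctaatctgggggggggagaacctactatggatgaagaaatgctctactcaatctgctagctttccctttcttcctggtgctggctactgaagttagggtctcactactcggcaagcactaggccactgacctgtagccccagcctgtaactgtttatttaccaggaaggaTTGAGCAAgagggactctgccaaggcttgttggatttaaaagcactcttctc
Orm2: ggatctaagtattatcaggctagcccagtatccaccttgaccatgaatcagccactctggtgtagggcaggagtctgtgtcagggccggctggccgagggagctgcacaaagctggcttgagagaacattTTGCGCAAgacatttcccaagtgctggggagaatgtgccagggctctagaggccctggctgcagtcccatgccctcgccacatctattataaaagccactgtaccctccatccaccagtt
Orm3: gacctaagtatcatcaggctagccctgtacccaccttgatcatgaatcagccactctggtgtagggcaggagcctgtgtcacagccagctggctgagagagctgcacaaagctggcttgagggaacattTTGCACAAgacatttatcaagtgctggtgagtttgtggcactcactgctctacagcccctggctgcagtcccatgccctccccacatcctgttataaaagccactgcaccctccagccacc
Lcn2: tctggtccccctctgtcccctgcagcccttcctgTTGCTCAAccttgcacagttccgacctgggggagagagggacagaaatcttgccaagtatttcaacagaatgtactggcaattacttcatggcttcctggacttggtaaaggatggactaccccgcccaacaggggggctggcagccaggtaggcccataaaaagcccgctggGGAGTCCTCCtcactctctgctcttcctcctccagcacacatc

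The promoters of Saa1 and Saa2 were 94.8% identical, with 238 identical bases in 251 aligned columns, and those of Orm2 and Orm3 were 85.9% identical. Saa1 and Saa4 had 49.5% identity. The RefSeq table matched 9 of the 10 genes, and the C/EBP motif was in 7 of those 9 promoters (Saa1, Saa2, Saa3, Saa4, Orm2, Orm3 and Lcn2), against 9.55% of 27025 mouse promoters of the same length. The NF-kB pattern GGRRNNYYCC was in the Saa1 and Lcn2 promoters, against 9.28% of all promoters. In Saa1 the C/EBP match began 182 bases and the NF-kB match 91 bases before the start, and in Saa2 the C/EBP match began 183 bases before it. The STAT3 motif TTCNNNGAA was in the Apcs promoter, against 7.18% of all promoters, and so was the HNF1 core TAATNATTA, against 0.596%. The TATA box TATAAA was in the promoters of Crp, Orm2 and Orm3, against 13.0% of all. The motifs were chosen after the sequences had been seen, and a match is a match of letters.

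The libraries differed in ways that touch every value given here. The FPKM of all genes summed to 489348 to 518580 in RIPK1 D138N, 441296 to 512931 in TNFR1/2 KO, 288934 to 303514 in WT and 649373 to 750501 in Sham. Alb was listed at 0 in every library, while the hepatocyte gene Apoa1 had 3034 to 21618 FPKM. A whole group listed at exactly 0 is treated here as a possibly failed estimate. Values are given as deposited unless a rescaling is named. RIPK1 D138N replicates 2 and 3 had Xist, the transcript of the inactive X chromosome, at 20.1 and 23.4 FPKM, while the other 10 libraries had at most 0.0824. The receptor gene Tnfrsf1a read 18.5 ± 3.28 FPKM in TNFR1/2 KO and 35.1 ± 2.90 in WT (SD, n = 3 each). It read 19.8 ± 1.09 in RIPK1 D138N and 69.5 ± 16.5 in Sham. The other receptor gene, Tnfrsf1b, averaged 6.83 FPKM in TNFR1/2 KO, 5.52 in RIPK1 D138N, 9.51 in WT and 6.92 in Sham. For both genes TNFR1/2 KO overlapped RIPK1 D138N, so these levels do not mark the knockout. The table does not show which exons those fragments cover. In whole liver, fewer cells of a type and less RNA per cell cannot be told apart.

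Saa1 and Saa2, on chromosome 7 at 46740497 to 46742980 and 46751790 to 46754313 (GRCm38), were the 6th and 4th highest rows of the table by mean FPKM. Both were much lower in the mutants than in WT, and lower in WT than in Sham. Saa1 read 743.5, 33.8 and 36.0 FPKM in RIPK1 D138N, 398.0, 724.5 and 235.5 in TNFR1/2 KO, 4111, 3416 and 5334 in WT and 24269.8, 19788.5 and 22199.6 in Sham. Saa2 read 612.3, 21.7 and 17.8 FPKM in RIPK1 D138N, 374.8, 678.9 and 185.8 in TNFR1/2 KO, 5045, 4171 and 6713 in WT and 26069, 23655 and 30614 in Sham. The ranges of the mutants, WT and Sham did not overlap, but RIPK1 D138N replicate 1 lay just above the highest TNFR1/2 KO library for Saa1 and among those libraries for Saa2, while replicates 2 and 3 lay far below all 3. Within RIPK1 D138N the highest library was 22.0 times the lowest for Saa1 and 34.5 times for Saa2.

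On the log2(FPKM + 1) scale Saa1 was lower in RIPK1 D138N than in WT by a log2 difference of -5.42 (SE 0.88, limma adjusted p = 0.000235) and Saa2 by -6.35 (SE 0.98, limma adjusted p = 0.000166). In TNFR1/2 KO against WT the differences were -3.37 for Saa1 (SE 0.88, limma adjusted p = 0.00704) and -3.84 for Saa2 (SE 0.98, limma adjusted p = 0.00623). Both mutants are compared with the same 3 WT libraries, so these comparisons are not independent. Saa1 fell by 2.38 on the log2 scale in WT against Sham (SE 0.88, limma adjusted p = 0.0333), and leaving out any 1 of the 6 WT and Sham libraries ended that call (limma adjusted p up to 0.0926). The Saa2 difference of -2.35 did not pass (SE 0.98, limma adjusted p = 0.0559), although every WT library lay below every Sham library and the Sham mean was 5.04 times the WT mean. The standard error is shared by the 4 groups and includes the wide RIPK1 D138N spread. Fitted on WT and Sham alone, the same Saa2 difference had a limma adjusted p of 6.43e-05. Under quantile normalization, however, the Saa1 and Saa2 differences between WT and Sham were -0.37 and -0.18, and neither passed. The Saa1 call was also lost under median-of-ratios scaling (-1.93) and sum scaling (-1.12). Saa1 and Saa2 together took 0.261%, 0.011% and 0.011% of the summed FPKM in RIPK1 D138N, 0.152%, 0.274% and 0.095% in TNFR1/2 KO, 3.141%, 2.5% and 4.17% in WT and 6.98%, 6.69% and 7.037% in Sham.

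**Figure D1:**
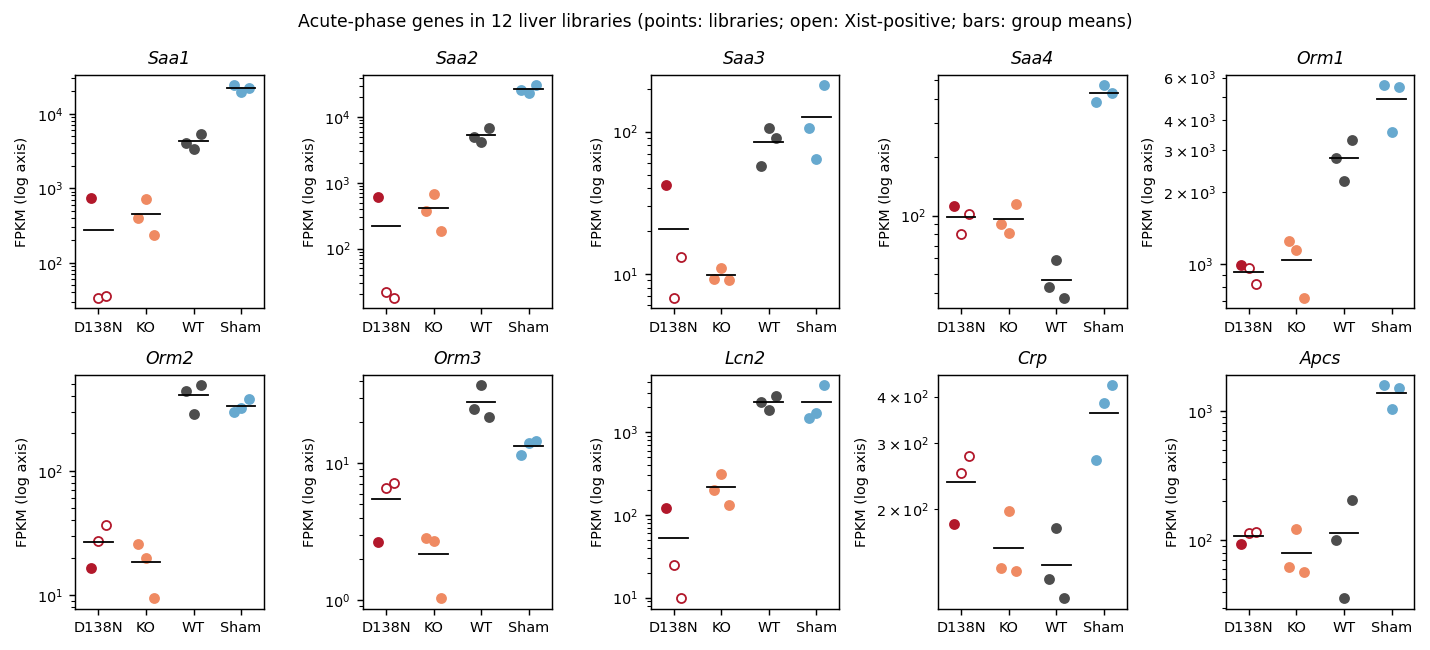
FPKM (log axis) of each of the 10 acute-phase genes in the 12 libraries, 1 point per library, with the groups RIPK1_D138N, TNFR12_KO (TNFR1/2 KO), WT and Sham from left to right. Open points are the Xist-positive libraries and bars are group means; the highest RIPK1_D138N library is 22.0 times the lowest for Saa1, 34.5 times for Saa2 and 12.4 times for Lcn2.

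Saa1 and Saa2 transcripts are 94.4% identical over 606 aligned bases, and 51 of the 603 windows of 50 bases in Saa2 (8.46%) occur exactly in Saa1, so fragments can be split between them in a way the table does not show. With that limit, Saa1 exceeded Saa2 in each mutant library and fell below it in each WT and Sham library. The ratio of Saa1 to Saa2 was 1.214, 1.559 and 2.027 in RIPK1 D138N, 1.062, 1.067 and 1.267 in TNFR1/2 KO, 0.815, 0.819 and 0.795 in WT and 0.931, 0.837 and 0.725 in Sham. The log2 difference of this ratio was 0.95 for RIPK1 D138N against WT and 0.48 for TNFR1/2 KO against WT. In an exact two-sided permutation test over 3 against 3 libraries both gave p = 0.1, the smallest that this design allows, and 0.162 after adjustment over the 42 ratio tests.

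Saa3, which in mice is expressed in macrophages and adipocytes more than in hepatocytes, lies on chromosome 7 at 46711998 to 46715700 and was far less abundant. It read 42.2, 6.79 and 13.2 FPKM in RIPK1 D138N, 9.16, 11.1 and 9.08 in TNFR1/2 KO, 57.0, 106.6 and 90.3 in WT and 106.5, 64.1 and 212.4 in Sham. Every mutant library lay below every WT library, and WT overlapped Sham. The log2 difference was -2.30 in RIPK1 D138N against WT (SE 0.53, limma adjusted p = 0.00295), -2.95 in TNFR1/2 KO against WT (SE 0.53, limma adjusted p = 0.000586) and -0.46 in WT against Sham (SE 0.53, limma adjusted p = 0.476). Without the 2 Xist-positive libraries, with the lone library assumed to vary like the other groups, the RIPK1 D138N difference was -0.94 (limma adjusted p = 0.167). The summed FPKM of 15 Kupffer cell and macrophage markers was 37.3 to 49.5 in RIPK1 D138N, 17.4 to 32.6 in TNFR1/2 KO, 86.2 to 108.2 in WT and 92.9 to 160.5 in Sham. Cd68 made up much of the WT sum, at 41.7, 60.8 and 46.3 FPKM. It read 1.13 to 1.74 in RIPK1 D138N, 1.26 to 3.11 in TNFR1/2 KO and 2.14 to 2.715 in Sham. Of the 10 testable markers, 4 fell in RIPK1 D138N and 7 in TNFR1/2 KO against WT, where 21.9% and 17.5% of all tested genes fell. In WT against Sham 6 fell and 1, Cd68, rose, where 41.9% of all tested genes fell. The part of these markers in the Saa3 result was not tested. Of 6 adipocyte markers only Fabp4 could be tested. It averaged 13.4 ± 5.33 FPKM in RIPK1 D138N, 15.8 ± 7.19 in TNFR1/2 KO, 32.6 ± 9.12 in WT and 10.3 ± 2.60 in Sham (SD, n = 3 each). Fabp4 rose in WT against Sham and fell in both mutants against WT, and its part in the Saa3 result was not tested either. The adipocyte gene Adipoq read at most 0.123 FPKM.

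Saa4, which encodes the constitutive serum amyloid A of high-density lipoprotein and lies on chromosome 7 at 46727998 to 46732603, followed another order. It read 112.2, 80.2 and 102.1 FPKM in RIPK1 D138N, 90.9, 81.5 and 114.6 in TNFR1/2 KO, 42.8, 58.8 and 37.6 in WT and 388.6, 472.7 and 432.4 in Sham. WT was the lowest group, both mutants lay above it without overlap, and Sham lay above all. In WT against Sham the log2 difference was -3.21 (SE 0.21, limma adjusted p = 1.69e-07), and the Sham mean was 9.29 times the WT mean. It kept its sign and its call under median-of-ratios, quantile and sum scaling, at -2.76, -2.10 and -1.97. Saa4 was 1.08 higher on the log2 scale in RIPK1 D138N than in WT (SE 0.21, limma adjusted p = 0.000826) and 1.04 higher in TNFR1/2 KO (SE 0.21, limma adjusted p = 0.00120). After quantile normalization these 2 values were 0.22 and 0.23 and no longer passed (limma adjusted p = 0.438 and 0.419). Under sum scaling they were 0.32 and 0.33 and did not pass either (limma adjusted p = 0.222 and 0.213). The ratio of Saa4 to Saa1 was 0.151, 2.376 and 2.837 in RIPK1 D138N, 0.228, 0.112 and 0.487 in TNFR1/2 KO, 0.010, 0.017 and 0.007 in WT and 0.016, 0.024 and 0.019 in Sham. This ratio does not depend on scaling between libraries, and every mutant library stood above every WT and Sham library.

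Orm1, Orm2 and Orm3 are neighbours on chromosome 4, at 63344560 to 63348163, 63362449 to 63365878 and 63356162 to 63359511. All 3 were lower in both mutants than in WT. Orm1, the most abundant, read 994.3, 967.5 and 826.9 FPKM in RIPK1 D138N, 1255, 1141 and 724.3 in TNFR1/2 KO, 2781, 2219 and 3307 in WT and 5576, 3548 and 5484 in Sham. The mutants overlapped each other, WT lay above both, and Sham lay above WT. The Orm1 log2 difference was -1.56 in RIPK1 D138N against WT (SE 0.26, limma adjusted p = 0.000304) and -1.43 in TNFR1/2 KO against WT (SE 0.26, limma adjusted p = 0.000661). In WT against Sham it was -0.80 (SE 0.26, limma adjusted p = 0.0187), but the call was lost without WT b, Sham a or Sham c (limma adjusted p up to 0.0686), and under quantile normalization the difference turned to 0.63 (limma adjusted p = 0.0305). It was -0.35 under median-of-ratios and 0.46 under sum scaling, without a call.

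Orm2 read 16.5, 27.0 and 36.3 FPKM in RIPK1 D138N, 25.5, 19.9 and 9.42 in TNFR1/2 KO, 441.3, 286.9 and 486.9 in WT and 298.2, 319.5 and 379.6 in Sham. Every mutant library lay far below every WT and Sham library, and WT overlapped Sham. The log2 difference was -3.91 in RIPK1 D138N against WT (SE 0.35, limma adjusted p = 2.79e-06), -4.47 in TNFR1/2 KO against WT (SE 0.35, limma adjusted p = 1.39e-06) and 0.26 in WT against Sham (SE 0.35, limma adjusted p = 0.547). The last value was called under quantile normalization (1.48, limma adjusted p = 0.0056) and sum scaling (1.51, limma adjusted p = 0.00157). Orm3 read 2.66, 6.55 and 7.13 FPKM in RIPK1 D138N, 2.82, 2.69 and 1.03 in TNFR1/2 KO, 25.1, 37.1 and 21.9 in WT and 11.6, 14.0 and 14.5 in Sham. WT was the highest group and did not overlap any other. With FPKM as deposited, Orm3 was the 1 gene of the 10 that rose in WT against Sham (0.99, SE 0.32, limma adjusted p = 0.0183), and without WT b or Sham a it no longer passed (limma adjusted p up to 0.0821). Orm3 was lower than in WT by -2.22 in RIPK1 D138N (SE 0.32, limma adjusted p = 9.66e-05) and by -3.21 in TNFR1/2 KO (SE 0.32, limma adjusted p = 6.65e-06).

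Within a library, Orm2 made up a larger part of the orosomucoid RNA in WT than in any other group. The ratio of Orm2 to Orm1 was 0.017, 0.028 and 0.044 in RIPK1 D138N, 0.020, 0.017 and 0.013 in TNFR1/2 KO, 0.159, 0.129 and 0.147 in WT and 0.053, 0.090 and 0.069 in Sham. Its log2 difference was -2.41 in RIPK1 D138N against WT, -3.12 in TNFR1/2 KO against WT and 1.06 in WT against Sham. Each gave an exact two-sided permutation p of 0.1, the smallest possible, and 0.162 after adjustment over 42 tests. Orm1 and Orm2 transcripts are 91.0% identical, and 148 of 726 windows of 50 bases (20.4%) are shared, so the split of fragments between them is uncertain too.

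**Figure D2:**
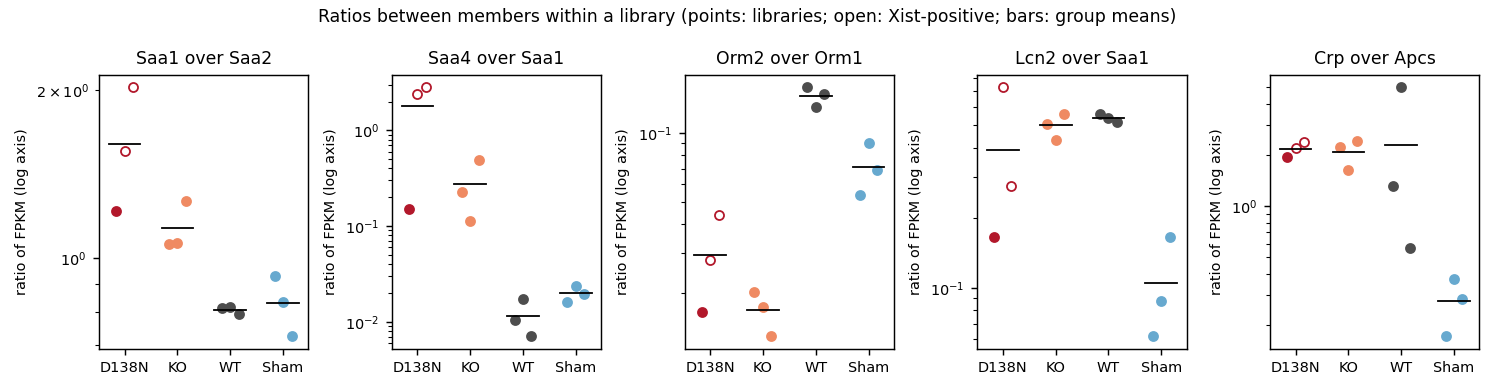
Ratios between pairs of the acute-phase genes within each library (log axis), 1 point per library, for RIPK1_D138N, TNFR12_KO, WT and Sham. Orm2 over Orm1 is 0.129 to 0.159 in WT and 0.013 to 0.044 in the mutants, and Saa1 over Saa2 is above 1 in the mutants alone.

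Lcn2, on chromosome 2 at 32384633 to 32388252, read 122.7, 24.6 and 9.86 FPKM in RIPK1 D138N, 201.0, 313.8 and 131.6 in TNFR1/2 KO, 2292, 1838 and 2746 in WT and 1502, 1729 and 3679 in Sham. Every RIPK1 D138N library lay below every TNFR1/2 KO library, both mutants lay far below WT, and WT and Sham overlapped. The log2 difference was -6.12 in RIPK1 D138N against WT (SE 0.67, limma adjusted p = 1.13e-05), -3.47 in TNFR1/2 KO against WT (SE 0.67, limma adjusted p = 0.000986) and 0.09 in WT against Sham (SE 0.67, limma adjusted p = 0.916). The WT mean was 43.7 times the RIPK1 D138N mean. Lcn2 is also a neutrophil granule protein. The summed FPKM of 14 neutrophil markers was 4.74 to 235.4 in RIPK1 D138N, 12.6 to 197.5 in TNFR1/2 KO, 5.04 to 303.1 in WT and 39.1 to 83.5 in Sham, and 0 of the 9 testable markers were called by limma in any comparison, with 0 at an unadjusted p under 0.05. In WT b, where the neutrophil markers summed to 5.04 FPKM with Mpo, Elane, Ngp and Camp at 0, S100a8 at 0.948 and S100a9 at 3.19, Lcn2 was 1838 FPKM. The part of neutrophils in the group differences was not tested. The ratio of Lcn2 to Saa1 was 0.165, 0.729 and 0.274 in RIPK1 D138N, 0.505, 0.433 and 0.559 in TNFR1/2 KO, 0.558, 0.538 and 0.515 in WT and 0.062, 0.087 and 0.166 in Sham.

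The pentraxin genes Apcs and Crp are neighbours on chromosome 1, at 172893961 to 172895041 and 172698055 to 172833031, and with FPKM as deposited neither was called lower in the mutants than in WT. Apcs read 93.4, 113.9 and 116.3 FPKM in RIPK1 D138N, 62.3, 121.4 and 56.8 in TNFR1/2 KO, 99.4, 35.6 and 203.5 in WT and 1576, 1028 and 1512 in Sham. Sham stood alone at the top and the other 3 groups overlapped. The log2 difference in WT against Sham was -3.89 (SE 0.48, limma adjusted p = 2.18e-05), the largest fall of the 10 genes in that comparison, and the Sham mean was 12.2 times the WT mean. Against WT it was 0.25 in RIPK1 D138N (SE 0.48, limma adjusted p = 0.676) and -0.25 in TNFR1/2 KO (SE 0.48, limma adjusted p = 0.695).

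Crp read 182.4, 250.5 and 276.7 FPKM in RIPK1 D138N, 138.9, 197.6 and 136.6 in TNFR1/2 KO, 129.97, 178.4 and 115.6 in WT and 270.4, 383.7 and 428.2 in Sham. RIPK1 D138N lay above WT without overlap, by 0.74 on the log2 scale (SE 0.25, limma adjusted p = 0.0230), and TNFR1/2 KO overlapped WT (0.16, SE 0.25, limma adjusted p = 0.618). After quantile normalization the TNFR1/2 KO difference was -0.66 and passed as a fall (limma adjusted p = 0.0300). The RIPK1 D138N difference was 0.61 under median-of-ratios, -0.17 under quantile and -0.027 under sum scaling and 0.39 without the Xist-positive libraries, and none of these passed. Leaving out RIPK1 D138N replicate 2 or 3, WT a or WT c also ended the call (limma adjusted p up to 0.0925). In WT against Sham it was -1.34 (SE 0.25, limma adjusted p = 0.000469) as deposited, and it did not pass after quantile normalization (-0.17) or sum scaling (-0.090).

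Counted over the 10 genes, 2 rose (Saa4 and Crp), 7 fell and 1 was not called in RIPK1 D138N against WT, while 29.8% of all tested genes rose and 21.9% fell. In TNFR1/2 KO against WT 1 rose (Saa4), 7 fell and 2 were not called, while 29.6% of all tested genes rose and 17.5% fell. The 7 that fell were Saa1, Saa2, Saa3, Orm1, Orm2, Orm3 and Lcn2 in both comparisons, and each was lower than WT under all 4 scalings. The median log2 difference of the 10 genes was -2.26 in RIPK1 D138N and -3.08 in TNFR1/2 KO against WT, beside 0.11 and 0.14 over all tested genes. In WT against Sham 1 rose, 5 fell and 4 were not called with FPKM as deposited, where 16.4% of all tested genes rose and 41.9% fell, and the medians were -1.07 for the 10 genes and -0.36 for all. That count of falls is close to the share among all genes. The split of all calls moved with the scaling: 1918 rose and 4913 fell in WT against Sham as deposited, against 2936 and 3164 under quantile normalization and 6236 and 1183 under sum scaling. In RIPK1 D138N against WT it was 3500 and 2570 as deposited, 3030 and 3286 under quantile normalization and 1677 and 5644 under sum scaling, and in TNFR1/2 KO against WT 3466 and 2054, 2859 and 3093, and 1711 and 5140. Of the 5, Saa4 and Apcs fell under each of the 4 scalings.

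**Figure D3:**
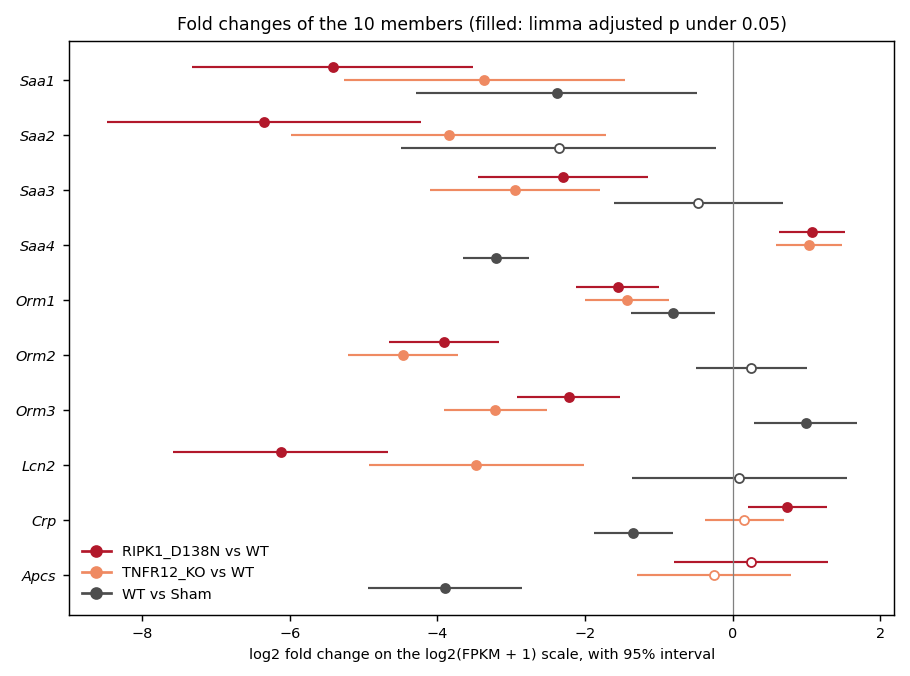
Log2 fold changes of the 10 acute-phase genes for RIPK1_D138N against WT, TNFR12_KO against WT and WT against Sham, with intervals of 95% from the limma fit over 12 libraries, and the first-named group of each comparison on top of the fold change. The other comparisons tested are not shown. Saa1, Saa2, Saa3, Orm1, Orm2, Orm3 and Lcn2 are below 0 in both mutants against WT, and filled points have an adjusted p under 0.05.

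**Figure D4:**
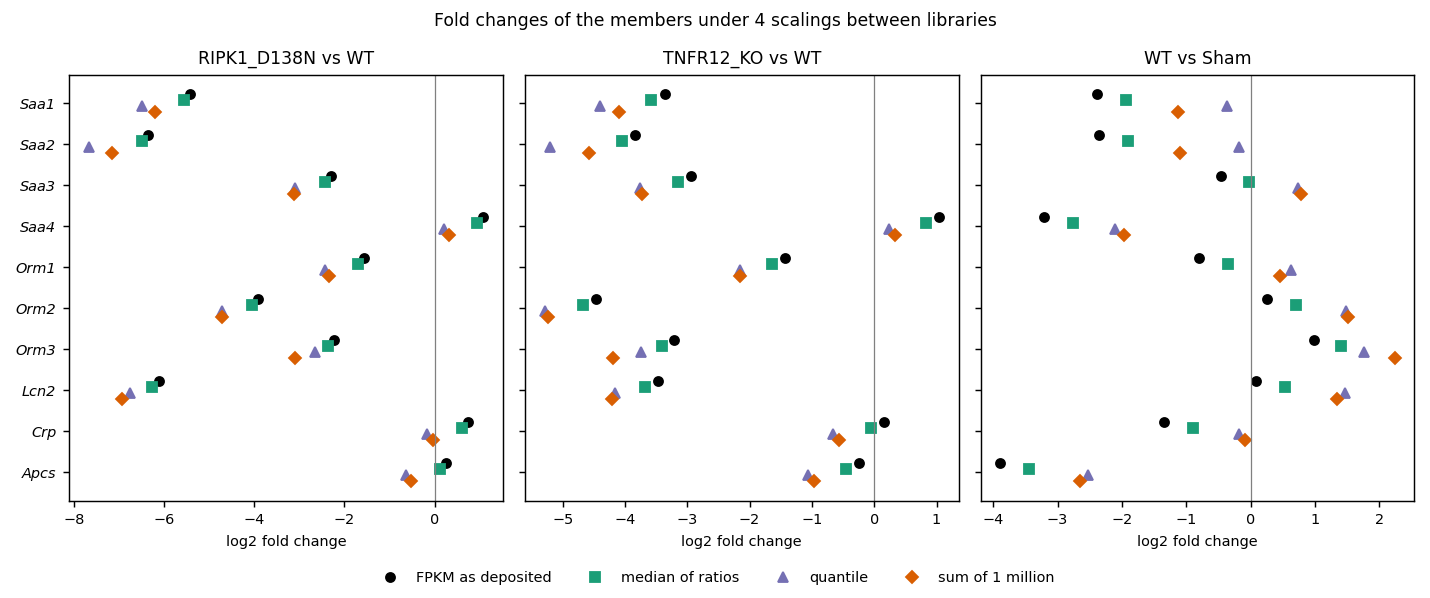
Log2 fold changes of the 10 acute-phase genes for RIPK1_D138N against WT, TNFR12_KO against WT and WT against Sham with FPKM as deposited and after 3 rescalings of the libraries. The mutant panels keep their signs for Saa1, Saa2, Saa3, Orm1, Orm2, Orm3 and Lcn2, while Orm1 and Saa3 change sign in WT against Sham.

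Set against Sham, 9 of the 10 genes fell in RIPK1 D138N, where 22.7% of all tested genes fell, and all 10 fell in TNFR1/2 KO, where 18.1% fell. None of the 10 rose, where 7.51% of all tested genes rose in RIPK1 D138N and 7.46% in TNFR1/2 KO. On the log2 scale Orm2 was -3.65 in RIPK1 D138N and -4.21 in TNFR1/2 KO, Orm3 was -1.23 in RIPK1 D138N and -2.22 in TNFR1/2 KO, and Lcn2 was -6.03 in RIPK1 D138N and -3.38 in TNFR1/2 KO. Rescaled, the Orm3 difference of RIPK1 D138N was -0.95 under median-of-ratios, -0.89 under quantile and -0.85 under sum scaling, and none of these passed. Crp in TNFR1/2 KO lost its call under sum scaling (-0.65, limma adjusted p = 0.0632). Crp in RIPK1 D138N was the exception (-0.60, limma adjusted p = 0.0814). These comparisons share the Sham libraries.

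Between RIPK1 D138N and TNFR1/2 KO none of the 10 genes was called, where 0.929% of all tested genes were. An unadjusted limma p under 0.05 was found for 5 of the 10, and for 1444 of all 11728 tested genes. Lcn2 had the largest difference, -2.65 (interval of 95% -4.10 to -1.19, limma adjusted p = 0.0947), and it was the 1 gene whose groups did not overlap, where 17.1% of tested genes did not. Saa2 differed by -2.51 (interval -4.64 to -0.37, limma adjusted p = 0.304), Saa1 by -2.05 (interval -3.96 to -0.15, limma adjusted p = 0.354) and Orm3 by 0.99 (interval 0.30 to 1.69, limma adjusted p = 0.194). The Saa1, Saa2 and Lcn2 values turn on RIPK1 D138N replicate 1. Without it 4 genes were called, with Saa1 at -3.51, Saa2 at -4.14 and Lcn2 at -3.61 lower in RIPK1 D138N and Orm3 at 1.36 higher. Calls also grew among all 11728 tested genes, to 273 higher and 315 lower, from 41 and 68 with replicate 1 kept. Replicate 1 is the Xist-negative library of its group, and its Saa1, Saa2 and Lcn2 levels were 21.3, 31.1 and 7.12 times the mean of the 2 Xist-positive libraries, while Orm1 was 1.11 times. With replicate 1 as the only RIPK1 D138N library, Saa1 and Saa2 were 0.86 and 0.76 above TNFR1/2 KO. Against WT that library was lower in Saa1 (-2.50), Saa2 (-3.09), Orm1 (-1.46), Orm2 (-4.50), Orm3 (-2.95) and Lcn2 (-4.19). Saa3 was lower by less (-0.94), Saa4 was higher (1.28), and Crp (0.39) and Apcs (0.05) were slightly higher. These values rest on 1 library, so no call is drawn from them. The part of sex in these differences was not tested.

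Of the cytokines that induce these genes in the liver, 7 of 11 could be tested. Il6, Lif, Il11 and Clcf1 rose in WT against Sham and fell in both mutants against WT, with Lif and Il11 listed at 0 in all Sham libraries. Ctf1 went the other way and rose in RIPK1 D138N (0.46, limma adjusted p = 0.0476) and in TNFR1/2 KO (0.62, limma adjusted p = 0.0129) against WT, and Il1b also fell in TNFR1/2 KO (-1.33, limma adjusted p = 0.0407). Of these cytokines 0 of 7 were called by limma between either mutant and Sham, with 0 at an unadjusted p under 0.05 in RIPK1 D138N and 1 in TNFR1/2 KO. Il6, the main inducer, read 2.78, 0.108 and 0 FPKM in RIPK1 D138N, 0.513, 1.07 and 0.368 in TNFR1/2 KO, 4.42, 1.15 and 4.45 in WT and 0.0172, 0 and 0 in Sham. RIPK1 D138N replicate 1, the library with the highest Saa1 and Saa2 of its group, also had the highest Il6 of its group. Clcf1, a gp130 cytokine, averaged 0.304 ± 0.199 FPKM in RIPK1 D138N, 0.272 ± 0.0273 in TNFR1/2 KO, 7.69 ± 3.61 in WT and 0.135 ± 0.0403 in Sham (SD, n = 3 each). Il6, Clcf1 and Orm3 had their highest group mean in WT, while Saa1, Saa2 and Apcs had theirs in Sham.

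Among receptors and signal transducers, 4 of 21 rose and 7 fell in WT against Sham, 3 rose and 8 fell in RIPK1 D138N against WT, and 2 rose and 4 fell in TNFR1/2 KO against WT. Of all tested genes 16.4% rose and 41.9% fell in WT against Sham. Against WT, 29.8% rose and 21.9% fell in RIPK1 D138N, and 29.6% rose and 17.5% fell in TNFR1/2 KO. The falls of this list in WT against Sham and its rises in both mutants were no more frequent than among all genes. Its falls in TNFR1/2 KO were close to that share. Il1rap, the accessory subunit of the interleukin-1 receptor, averaged 48.7 ± 3.20 FPKM in RIPK1 D138N, 55.2 ± 4.98 in TNFR1/2 KO, 9.26 ± 2.89 in WT and 51.9 ± 3.19 in Sham. Stat3 averaged 10.8 ± 1.17 FPKM in RIPK1 D138N, 15.9 ± 2.33 in TNFR1/2 KO, 24.7 ± 5.64 in WT and 36.2 ± 15.9 in Sham, and fell in RIPK1 D138N against WT (-1.09, limma adjusted p = 0.00536). Of 17 transcription factors of acute-phase promoters, 10 rose and 4 fell in WT against Sham, 2 rose and 6 fell in RIPK1 D138N against WT, and 5 rose and 4 fell in TNFR1/2 KO against WT. The 5 rises in TNFR1/2 KO are close to the share among all genes. Relb, an NF-kB subunit, averaged 0.823 ± 0.390 FPKM in RIPK1 D138N, 1.37 ± 0.343 in TNFR1/2 KO, 6.40 ± 0.894 in WT and 0.421 ± 0.189 in Sham. Cebpb, whose product is a C/EBP factor, was not called in any comparison (239.7 ± 89.6 FPKM in RIPK1 D138N, 227.3 ± 64.3 in TNFR1/2 KO, 195.6 ± 70.4 in WT and 234.8 ± 126.5 in Sham).

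**Figure D5:**
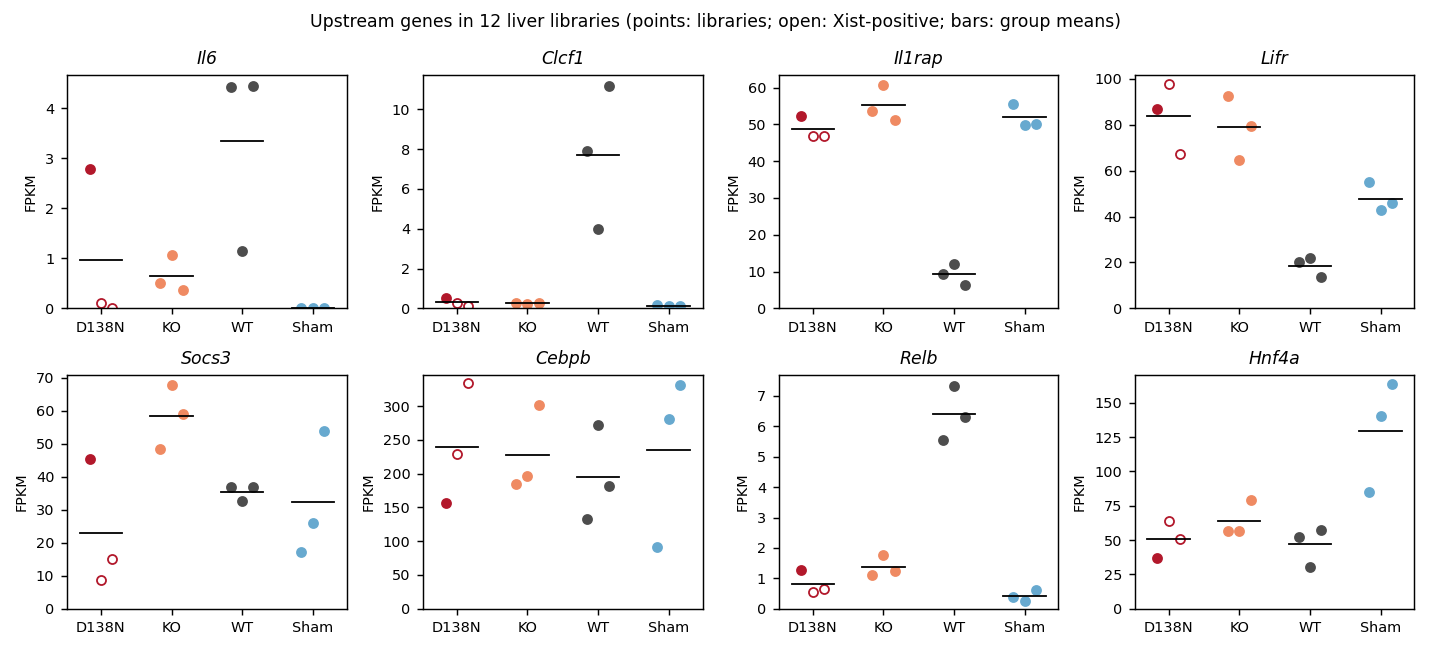
FPKM (linear axis from 0) of Il6, Clcf1, Il1rap, Lifr, Socs3, Cebpb, Relb and Hnf4a in the 12 libraries, 1 point per library with bars at group means, for RIPK1 D138N, TNFR1/2 KO, WT and Sham. Clcf1 and Relb are highest in WT, and Cebpb overlaps across all 4 groups.

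Other positive acute-phase genes were mixed. Of 26 tested, 5 rose and 15 fell in RIPK1 D138N against WT, 4 rose and 13 fell in TNFR1/2 KO against WT, and 5 rose and 16 fell in WT against Sham. Of all tested genes 29.8% rose and 21.9% fell in RIPK1 D138N against WT. The shares were 29.6% and 17.5% in TNFR1/2 KO against WT, and 16.4% and 41.9% in WT against Sham. The 5 rises in WT against Sham are close to that share. The rises against WT include Hp, listed at 0 in every WT library, and those in WT against Sham include Serpina3m, listed at 0 in every Sham library. Either may be a failed estimate. Under quantile normalization the count of this list in WT against Sham was 9 rising and 4 falling, while the falls against WT stayed in the majority in both mutants (18 in RIPK1 D138N and 19 in TNFR1/2 KO). Serpina3n, an acute-phase serpin, averaged 85.6 ± 10.3 FPKM in RIPK1 D138N, 129.3 ± 5.96 in TNFR1/2 KO, 838.0 ± 307.1 in WT and 2092 ± 786.7 in Sham, an order like that of Saa1. Itih4 averaged 716.3 ± 157.4 FPKM in RIPK1 D138N, 540.7 ± 134.95 in TNFR1/2 KO, 241.6 ± 26.0 in WT and 2833 ± 859.7 in Sham, an order like that of Saa4. Lrg1 was the 1 listed gene called between the mutants, at 208.9 ± 104.2 FPKM in RIPK1 D138N and 512.6 ± 78.6 in TNFR1/2 KO (-1.39, limma adjusted p = 0.0478), and under median-of-ratios scaling no gene of this list was called. The negative acute-phase genes, which fall in inflammation, shared a direction: 16 of 16 rose in each mutant against WT and 16 of 16 fell in WT against Sham. Under quantile normalization 10 rose in RIPK1 D138N and 9 in TNFR1/2 KO against WT, and 3 fell in WT against Sham. The 16 include Trf, the transferrin gene, which was listed at 0 in all 3 WT libraries and at 5919.97 to 8422 FPKM in the others. Its WT values may be a failed estimate, so its calls against WT and in WT against Sham are uncertain. Apoa1 averaged 8982 ± 982.8 FPKM in RIPK1 D138N, 10542 ± 1112 in TNFR1/2 KO, 3522 ± 759.7 in WT and 19423 ± 1991 in Sham. Summed hepatocyte markers were 19582 to 20355 FPKM in RIPK1 D138N, 18370.1 to 22129 in TNFR1/2 KO, 5231 to 8158 in WT and 29635 to 35314 in Sham. Apoa1 was the largest part of that sum in every library. Apoa1 and Ttr are both hepatocyte markers and members of the 16 negative acute-phase genes, so the sum is not a separate readout. The part of hepatocyte markers in the values of Saa4, Crp and Apcs was not tested.

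Genes whose log2(FPKM + 1) ran most like each gene over the 12 libraries were found among 5504 genes with a mean of at least 5 FPKM. The values are a description, since all points share the 4 groups. Ldha was closest to Saa1 and Saa2 (Pearson r = 0.97 for both), Rrs1 to Lcn2 (0.98), Cpne8 to Orm1 (0.98), Nrg4 to Orm2 (0.97), Bsg to Orm3 (0.97), Cdip1 to Saa4 (0.98) and Vdac3 to Apcs (0.99). Fgl1, a hepatocyte-secreted acute-phase protein gene, also ran closely with Apcs (0.98). Saa3 was closest to Ddx18 (0.95) and Crp to Slc4a1ap (0.93).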

How the data were processed

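Liver RNA was sequenced in 12 libraries, and the authors deposited 1 table of FPKM values per gene and library. Per the submitters' processing notes, Cuffdiff, STAR (2.5.4a) and Cufflinks (2.2.1) were used, and the genome was mm10. Strand setting and filters are not given in the sources used here. Per the file headers, the RIPK1 D138N and TNFR1/2 KO columns match numbered samples, while WT and Sham columns match only their group. No column was left unused. Gene positions came from GENCODE M21, which held 53616 of the 53796 identifiers (99.7%).

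FPKM carries no counts, and no counting interval is given. From the lowest steps between values, 1 FPKM was worth an estimated 11.2 to 58.9 fragments per kilobase of transcript, so Orm3, the lowest of the 10 genes, rested on roughly 26 to 1690 fragments per library. Values were tested as log2(FPKM + 1) with limma 3.58.1 in R 4.3.3, in 1 model of 4 group means with a mean-variance trend, over 11728 genes that reached 1 FPKM in 3 or more libraries. P-values were adjusted by Benjamini-Hochberg over all tested genes, and adjusted p under 0.05 was called. "Rose" and "fell" mean called. The fit was tested on simulated data. Fold changes on this scale understate changes of low genes. Ratios within a library were compared by exact permutation with scipy 1.17.1.

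Named genes are the 10 chosen and genes from the up to 2 largest rises and 2 largest falls per list and comparison. The closest gene by correlation is also named for each of the 10, with Fgl1, which is among the 3 closest to Apcs. A few others (Il6, Cebpb, Socs3, Hp, Alb, Xist, Ddx3y, Adipoq, Ctf1, Il1b, Trf, Ttr, Tnfrsf1b, Serpina3m, S100a8, S100a9) were chosen after their values were seen. A gene that the naming rule also selects is not reported here. The genes, lists and motifs were chosen with earlier results of these data known. Replicate numbers did not pair the mutants: same-numbered libraries deviated together with r = -0.0975, -0.202 and 0.0574. Alternatives were other pseudocounts, filters, scalings and fits, array weights, and leaving out each library.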

Additional observations from a re-analysis of the deposited data

How the results depend on the processing

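Of 1420 recomputed fold changes of the 10 genes, 1336 kept their direction and side of the threshold, 37 lost the call, 21 gained it and 26 turned. The count of genes called in WT against Sham, 6, was 3 with no filter on low values and 3 to 7 when 1 library was left out (3 without WT b or Sham a). Among all 11728 tested genes, 1918 rose and 4913 fell in the main fit. With no filter, 2738 rose and 4737 fell of 27155. Of the 11728, 2010 rose and 4469 fell without WT b, and 1660 rose and 4623 fell without Sham a. Between RIPK1 D138N and TNFR1/2 KO, 0 became 6 with array weights and 0 to 4 with 1 library left out. Among all 11728 tested genes, 41 rose and 68 fell in the main fit and 715 rose and 1074 fell with array weights. The 4 were called without RIPK1 D138N replicate 1, where 273 of all tested genes rose and 315 fell. In WT against Sham, Saa3 turned to 0.73 and 0.79 and Orm1 to 0.63 and 0.46 under quantile and sum scaling, and Lcn2 ran from -0.16 to 0.49 with 1 library left out. In RIPK1 D138N against WT, Crp turned to -0.17 and -0.027 and Apcs to -0.63 and -0.51 under these scalings, and Apcs ran from -0.40 to 0.84 with 1 library left out. In TNFR1/2 KO against WT, Crp turned to -0.050, -0.66 and -0.562 under median-of-ratios, quantile and sum scaling. With 1 library left out Crp ran from -0.012 to 0.34 and Apcs from -0.91 to 0.34. Between the mutants Saa4 turned to -0.013 and -0.010 under quantile and sum scaling, and without both Xist-positive libraries Saa1, Saa2 and Orm2 were 0.86, 0.76 and -0.038. With 1 library left out Saa3 ran from -0.033 to 1.203, Saa4 from -0.069 to 0.17 and Orm1 from -0.37 to 0.027. The cause was not tested. With the replicate number as a block, 0 of the 10 genes were called between the mutants, as without it, and 7 of all tested genes rose and 4 fell. No paired analysis was possible for the other comparisons because the numbers of the WT and Sham columns could not be tied to single samples. WT's low summed FPKM limits every comparison with it: the median over all genes in WT against Sham was -0.36 as deposited, -0.03 under median-of-ratios and 0.67 under sum scaling.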

Other observations

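Hp, the gene of the acute-phase protein haptoglobin, was listed at 0 in all WT and all Sham libraries and at 1658 to 3892 FPKM in RIPK1 D138N and 3624 to 5222 FPKM in TNFR1/2 KO. No fold is given against a group listed at 0. Hamp, the gene of the iron hormone hepcidin, read 104.1, 2140.05 and 236.5 FPKM in TNFR1/2 KO, so its 3 libraries differed from one another more than the 3 RIPK1 D138N libraries did (1965, 2195 and 1737 FPKM). The summed FPKM of 5 red blood cell genes was 889.8 to 1766 in RIPK1 D138N, 963.7 to 2004 in TNFR1/2 KO, 79.9 to 152.6 in WT and 166.5 to 316.8 in Sham. Of 10 tested receptors and ligands of the encoded proteins, 4 rose and 3 fell in RIPK1 D138N against WT, 3 rose and 3 fell in TNFR1/2 KO against WT, and 4 fell in WT against Sham. Of all tested genes 29.8% rose and 21.9% fell in RIPK1 D138N, 29.6% rose and 17.5% fell in TNFR1/2 KO, and 41.9% fell in WT against Sham. The 4 falls in WT against Sham and the 3 rises in TNFR1/2 KO are close to those shares.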
